A study of Homo sapiens with 4 samples.

Results

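The genes described here are 32 members of the cholesterol synthesis pathway and of its regulation by sterol regulatory element-binding proteins (SREBPs), chosen by gene name from the 37810 names of the deposited expression table. All 32 names were found. By role they comprised 18 enzymes of sterol synthesis, 6 genes of SREBP regulation and sterol transport, and 8 genes of fatty acid and lipid synthesis. The study depleted FOXF2, a forkhead transcription factor, with small interfering RNA (siRNA) and measured gene expression in a normal-like and a malignant breast epithelial line. The 4 groups were MDA-MB-231 cells with FOXF2 siRNA, MDA-MB-231 cells with control siRNA, MCF10A cells with FOXF2 siRNA and MCF10A cells with control siRNA. MCF10A cells are mammary epithelial cells that are immortalized but do not form tumours, and the MDA-MB-231 line came from a metastatic breast cancer. Each culture received 20 nM siRNA, RNA was taken at 48 h, and each group was read on 1 Illumina array, so that no group had replicates. The labels give the medium only as the one suited to each line, so line and medium cannot be told apart.

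Cholesterol is built from acetyl-CoA through mevalonate, the isoprenoid farnesyl diphosphate, squalene and lanosterol, by enzymes that are mostly bound to the endoplasmic reticulum. When membrane sterol is low, the escort protein SCAP carries SREBPs to the Golgi, where proteases release the fragment that enters the nucleus and switches on the genes of sterol and fatty acid synthesis. When sterol is plentiful, INSIG proteins hold SCAP and SREBPs back in the endoplasmic reticulum, and the liver X receptors (LXRs), activated by oxidized sterols, switch on genes of sterol export.

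FOXF2 itself had intensities of 123 with FOXF2 siRNA and 259 with control siRNA in MDA-MB-231, and of 143 and 241 in MCF10A, so that in either line its siRNA array had the lower value. Medians of the 4 arrays were 111 to 112, and a gene counted as above background over an intensity of 121 to 122. Of 7 basal epithelial markers in the table, all 7 were lower in MDA-MB-231 by limma, with summed intensities of 1272 and 1221 in MDA-MB-231 against 50297 and 46969 in MCF10A. Of 8 mesenchymal-like markers, VIM and AXL were called higher and TGFBI was called lower in MDA-MB-231. The other 5 were not called, with log2 differences of 0.94 for ZEB1, 0.53 for MSN, -0.35 for CD44, -0.52 for SPARC and -0.05 for CAV1. Over all genes tested, 5.75% were called higher and 5.95% lower. The adipocyte markers ADIPOQ and PLIN were above background on none of the 4 arrays, CIDEC and LPL on 1 each, and FABP4 and LEP on all 4. Of 4 hepatocyte markers, APOB and TTR were above background on none, ALB and APOA1 on 2 each, and APOA1 was called higher in MDA-MB-231 (adjusted p = 0.0353), with 130.0 and 161 in MDA-MB-231 and 102 and 98.7 in MCF10A. The summed intensities of the 6 adipocyte markers in the table were 955 and 967 in MDA-MB-231 and 806 and 814 in MCF10A, and 1 of the 6, FABP4, was called higher in MDA-MB-231 (log2 difference 1.27). The fibroblast markers COL1A2, COL3A1 and LUM were above background on no array, and DCN was above it on the MCF10A arrays only (852.5 with FOXF2 siRNA and 333 with control siRNA). COL1A1 was above background on 1 array and PDGFRA on 3. The summed intensities of the 6 fibroblast markers were 655 and 597 in MDA-MB-231 and 1405 and 886 in MCF10A. The blood and endothelial markers PTPRC, CD3D, VWF and CDH5 were above background on no array, and CD68 and PECAM1 on all 4. CD68 was higher in MDA-MB-231 (log2 difference 1.87), and PECAM1 was not called (0.32). The part of these markers in the results was not tested.

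The sterol synthesis genes were much lower in MDA-MB-231 than in MCF10A, with either siRNA. The lines were compared with limma, in a fit with line and siRNA as terms, over the 20747 genes that passed the background limit on any array. A call needed a log2 difference of 1 or more together with an adjusted p below 0.05 (Benjamini-Hochberg over all genes tested). Of the 32 members, 31 were above background on all 4 arrays and 1, STARD4, on none. Of these 31, 20 were called lower and 0 higher in MDA-MB-231, where 5.95% of all genes tested were called lower and 5.75% higher. The median log2 difference was -1.48 over the 31 members and 0.03 over all genes tested. In deposited intensity, both MDA-MB-231 arrays lay below both MCF10A arrays for 23 of the 31 members, against 25.0% of all genes tested, and above them for 3, against 27.7%. Differences are given on a background-corrected log2 scale, MDA-MB-231 minus MCF10A, averaged over the siRNAs.

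**Figure D1:**
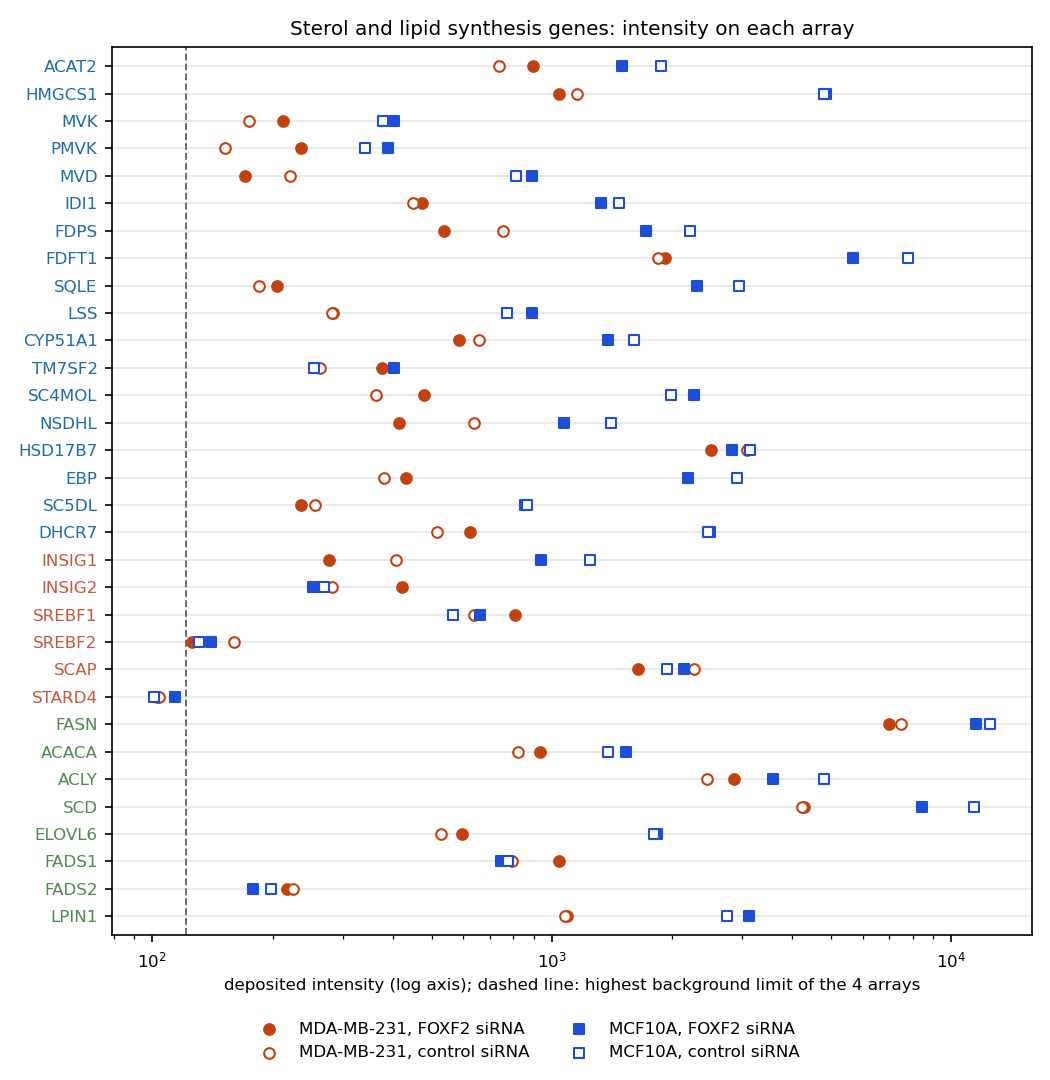
Deposited intensity (log axis) of each of the 32 genes on the 4 arrays, with circles for MDA-MB-231, squares for MCF10A, filled symbols for FOXF2 siRNA and open symbols for control siRNA; label colours give the roles (blue, sterol synthesis; red, SREBP regulation; green, fatty acid and lipid synthesis). For 23 genes both circles lie left of both squares, and the 4 values of STARD4 lie below the dashed background limit.

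Among the sterol synthesis enzymes, 16 of 18 were called lower in MDA-MB-231, against 5.95% of all genes tested, with a median log2 difference of -1.84. The difference was largest at squalene epoxidase, SQLE, which makes the first oxygenated intermediate of the sterol branch. SQLE had intensities of 206 and 185 in MDA-MB-231 (FOXF2 and control siRNA, the order used throughout), against 2306 and 2945 in MCF10A. Its log2 difference was -4.54 (limma SE 0.22, adjusted p = 1.84e-94), a level 23.2-fold lower in MDA-MB-231, and it ranked 67 from the lowest of the 20747 genes tested. The deposited intensities of SQLE, without background correction, differed by 13.4-fold.

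The early steps of the pathway lead to mevalonate and then to farnesyl diphosphate. ACAT2, the cytosolic thiolase that joins acetyl-CoA units, had 896 and 738 in MDA-MB-231 and 1501 and 1877 in MCF10A, and its log2 difference of -1.13 was the smallest of the 16 called. With limma's spread held equal for bright and dim genes, ACAT2 lost its call (adjusted p = 0.0724). HMGCS1, the cytosolic HMG-CoA synthase, had 1043 and 1159 in MDA-MB-231 against 4847 and 4799 in MCF10A (log2 difference -2.22). The gap of 4.67-fold between lines was far wider than the difference between the arrays of a line, which was -0.17 on the log2 scale in MDA-MB-231 and 0.01 in MCF10A. The kinases MVK and PMVK, which phosphorylate mevalonate in turn, were dimmer. MVK had 212 and 174 in MDA-MB-231 and 403 and 377 in MCF10A (-1.53). PMVK had 236 and 152 in MDA-MB-231 and 389 and 340.1 in MCF10A (-1.48), and without background correction its difference of -0.94 fell short of a call.

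The decarboxylase MVD, which makes isopentenyl diphosphate, had one of the widest gaps, with 171 and 221 in MDA-MB-231 and 890.3 and 814 in MCF10A. Its log2 difference was -2.85, or 7.19-fold lower after background correction and 4.39-fold lower in deposited intensity. IDI1, the isomerase of isopentenyl diphosphate, had 474 and 449 in MDA-MB-231 and 1326 and 1475 in MCF10A (-1.81). FDPS, which makes farnesyl diphosphate, had 536 and 753 in MDA-MB-231 and 1716 and 2212 in MCF10A (-1.76). FDFT1, the squalene synthase that commits farnesyl diphosphate to sterols, had 1915 and 1842 in MDA-MB-231 and 5688 and 7808 in MCF10A (-1.88). In deposited intensity both MDA-MB-231 arrays lay below both MCF10A arrays for each of these 4 enzymes, as they did for 25.0% of all genes tested.

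After SQLE, the cyclase LSS folds the epoxide into lanosterol, and CYP51A1 removes its first methyl group. LSS had 284 and 282 in MDA-MB-231 and 889.9 and 772 in MCF10A (-1.91). CYP51A1 had 587 and 658 in MDA-MB-231 and 1381 and 1605 in MCF10A (-1.39). The demethylation that follows is carried out by SC4MOL (now MSMO1), NSDHL and HSD17B7. SC4MOL had 479.9 and 363 in MDA-MB-231 and 2275 and 1983 in MCF10A (-2.63, or 6.17-fold lower). NSDHL had 414 and 639 in MDA-MB-231 and 1073 and 1408 in MCF10A (-1.42). HSD17B7, acting in the same complex, did not pass the test: it had 2503 and 3085 in MDA-MB-231 and 2827 and 3140.1 in MCF10A, with a log2 difference of -0.10 (SE 0.19, adjusted p = 0.795). HSD17B7 has a closely similar pseudogene, and whether its single probe also reads that pseudogene was not tested.

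The last steps were lower in MDA-MB-231 as well. EBP, the sterol isomerase, had 431 and 380.2 in MDA-MB-231 and 2196 and 2904 in MCF10A (-2.94, 7.66-fold lower). SC5DL (now SC5D), a desaturase, had 236 and 255 in MDA-MB-231 and 859 and 869 in MCF10A (-2.29). DHCR7, the reductase that completes cholesterol in one of the final branches, had 623 and 516 in MDA-MB-231 and 2485 and 2455 in MCF10A (-2.31). TM7SF2, a sterol reductase that acts after CYP51A1, was the other sterol enzyme that did not pass. TM7SF2 had 375 and 263 in MDA-MB-231 and 404 and 253 in MCF10A, with overlapping lines and a log2 difference of -0.03 (SE 0.25, adjusted p = 0.959). LBR, a nuclear envelope protein with the same reductase activity and taken from a wider list of sterol genes, was lower in MDA-MB-231, with 157 and 171 against 216 and 306 in MCF10A (-1.12, adjusted p = 0.00135).

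**Figure D2:**
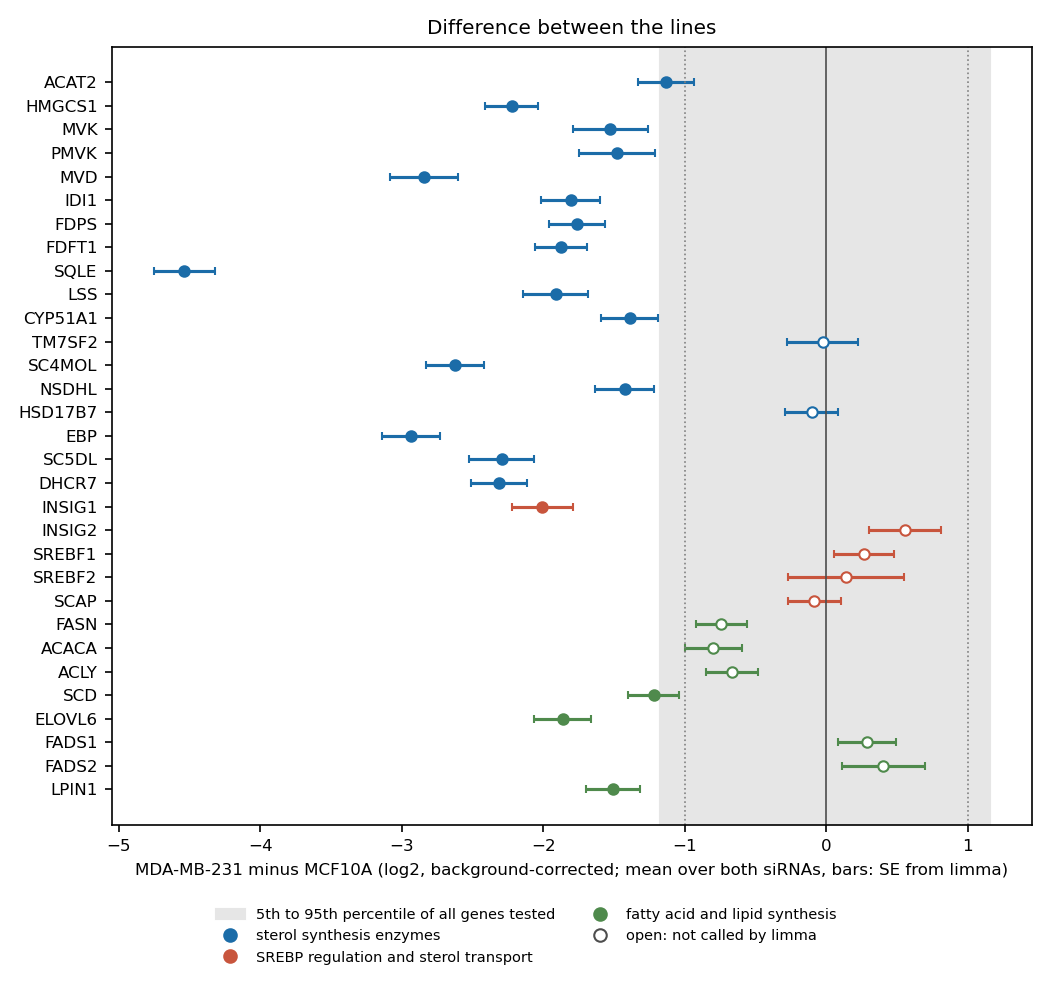
Log2 difference between the lines (MDA-MB-231 minus MCF10A, mean over both siRNAs) for the 31 genes above background, with bars for limma's SE, filled points for genes called and open points for genes not called. The grey band is the 5th to 95th percentile of all genes tested (-1.18 to 1.16). SQLE lies at -4.54, while TM7SF2 and HSD17B7 lie near 0.

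Of the 5 measured genes of SREBP regulation, 1, INSIG1, was called lower in MDA-MB-231, against 5.95% of all genes tested. The other 4 were not called. INSIG1, itself a known SREBP target that retains SCAP, had 276 and 408 in MDA-MB-231 and 942 and 1243 in MCF10A (log2 difference -2.01, SE 0.22, adjusted p = 1.28e-18). Its paralog INSIG2, which has the same retaining function, had 422 and 282 in MDA-MB-231 and 252 and 269.7 in MCF10A (0.56, SE 0.25, adjusted p = 0.12). The genes that encode the SREBPs did not pass the test. SREBF1 had 807 and 639 in MDA-MB-231 and 661 and 567 in MCF10A (0.26, SE 0.21, adjusted p = 0.521). SREBF2, whose product mainly drives sterol genes, was close to background, with 126 and 159.8 in MDA-MB-231 and 140.2 and 131 in MCF10A (0.14, SE 0.41, adjusted p = 0.867). The SE of SREBF2 was the largest of the 31 members, so these arrays resolve its difference least. SCAP had 1642 and 2268 in MDA-MB-231 and 2145 and 1939 in MCF10A (-0.08, adjusted p = 0.831). STARD4, a sterol transfer protein, had 103, 104, 114 and 101, all below background, and no difference is given for it.

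Promoters are shown for SC4MOL, EBP, MVD and INSIG1, that is 3 enzymes with wide gaps and the regulator that was called, and for TM7SF2, an enzyme that was not called. They were chosen after the motif matches were known. Windows of 300 bases, from 250 before to 50 after the annotated start, were taken from RefSeq (GRCh38.p14), and 28 of the 32 members had at least 1. They were searched on both strands for CACNCCA, the core of the sterol regulatory element bound by SREBPs, for CCAAT, the box of the cofactor NF-Y, and for GGGCGG, a GC box bound by Sp1. In the sequences, 5′ to 3′ on the gene's strand, capitals mark CACNCCA and CCAAT or their reverse complements.
SC4MOL (MSMO1) promoter, chr4:165327419-165327718, plus strand: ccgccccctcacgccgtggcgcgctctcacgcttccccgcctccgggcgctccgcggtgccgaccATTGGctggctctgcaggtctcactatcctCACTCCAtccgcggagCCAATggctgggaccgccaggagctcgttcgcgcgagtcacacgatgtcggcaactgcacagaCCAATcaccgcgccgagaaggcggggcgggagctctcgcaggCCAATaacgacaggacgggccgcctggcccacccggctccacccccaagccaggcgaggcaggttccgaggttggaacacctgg
EBP promoter, chrX:48521558-48521857, plus strand: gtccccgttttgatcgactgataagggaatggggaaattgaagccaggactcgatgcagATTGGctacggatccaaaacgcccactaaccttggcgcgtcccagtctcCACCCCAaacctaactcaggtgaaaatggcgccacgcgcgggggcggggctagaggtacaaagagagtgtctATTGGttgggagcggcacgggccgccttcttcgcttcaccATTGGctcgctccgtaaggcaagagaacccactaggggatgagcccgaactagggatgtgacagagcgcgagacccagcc
MVD promoter, chr16:88663042-88663341, minus strand: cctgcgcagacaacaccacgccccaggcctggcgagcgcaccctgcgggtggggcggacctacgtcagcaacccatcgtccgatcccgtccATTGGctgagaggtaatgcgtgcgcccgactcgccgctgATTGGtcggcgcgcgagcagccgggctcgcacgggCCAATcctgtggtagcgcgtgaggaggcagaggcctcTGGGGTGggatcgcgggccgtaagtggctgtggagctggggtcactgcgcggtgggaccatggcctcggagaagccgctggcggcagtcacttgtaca
INSIG1 promoter, chr7:155297628-155297927, plus strand: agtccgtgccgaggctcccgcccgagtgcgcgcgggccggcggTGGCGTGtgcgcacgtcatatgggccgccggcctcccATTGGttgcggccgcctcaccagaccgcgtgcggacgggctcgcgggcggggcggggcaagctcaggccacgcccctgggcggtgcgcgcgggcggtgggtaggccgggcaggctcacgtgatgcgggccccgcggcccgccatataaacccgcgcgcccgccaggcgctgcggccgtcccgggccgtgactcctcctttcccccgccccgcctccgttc
TM7SF2 promoter, chr11:65111622-65111921, plus strand: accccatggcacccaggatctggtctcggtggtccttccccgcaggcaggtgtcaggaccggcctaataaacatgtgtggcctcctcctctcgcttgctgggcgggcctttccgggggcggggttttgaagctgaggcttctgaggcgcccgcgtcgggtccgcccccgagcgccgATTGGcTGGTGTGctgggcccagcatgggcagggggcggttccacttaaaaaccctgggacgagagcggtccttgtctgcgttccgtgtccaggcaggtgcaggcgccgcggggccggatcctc

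In MVD the CACNCCA match began 48 bases before the start, downstream of CCAAT boxes at 159, 120 and 85. In SC4MOL it began at 155, with CCAAT boxes at 185, 139, 76 and 34 bases, and in EBP at 142, with boxes at 191, 70 and 30. In INSIG1 the match lay at 207 and the single CCAAT box at 170, and in TM7SF2 they lay at 68 and 74 with 1 base between them. All 5 windows shown hold both motifs, that of TM7SF2 included. Of the 28 members with a window, 13 held CACNCCA (46.4%), against 20.6% of 27305 genes in the table. CCAAT was found in 20 of 28 (71.4%, against 39.7%) and GGGCGG in 27 of 28 (96.4%, against 48.3%). Counted by window, the shares were 35% against 17.6% for CACNCCA, 60% against 34.6% for CCAAT and 87.5% against 45% for GGGCGG. The 27305 genes were not matched to the members in expression. CACNCCA was found in 9 of the 17 members with a window that were called lower in MDA-MB-231 and in 4 of the 10 that were not called. Neither CACNCCA nor CCAAT was found for PMVK, CYP51A1 and ELOVL6, which were called lower, or for INSIG2, SREBF1, SCAP and FADS1, which were not called. A match is a description of the letters and not evidence of binding in these cells.

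The genes of fatty acid and lipid synthesis were lower by less, and not all of them were. Of 8, 3 were called lower, against 5.95% of all genes tested, with a median log2 difference of -0.77 over the 8. Counting smaller differences at an adjusted p under 0.05, 6 were lower, where 9.48% of all genes tested were. ELOVL6, an elongase of saturated fatty acids, had 596 and 529 in MDA-MB-231 and 1829 and 1799.9 in MCF10A (-1.86). LPIN1, a phosphatidate phosphatase of triglyceride and phospholipid synthesis, had 1091 and 1079.7 in MDA-MB-231 and 3108 and 2752 in MCF10A (-1.51). SCD, the stearoyl-CoA desaturase, had 4289.7 and 4221 in MDA-MB-231 and 8434 and 11388 in MCF10A (-1.22).

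The main line of fatty acid synthesis runs from ACLY, which makes cytosolic acetyl-CoA from citrate, through the carboxylase ACACA to the synthase FASN, and these 3 passed the adjusted p but not the size of 1. With limma's spread held equal for bright and dim genes none of the 3 passed (adjusted p = 0.242 for FASN, 0.206 for ACACA and 0.31 for ACLY), which left 3 of the 8 lower. FASN had 6962 and 7464 in MDA-MB-231 and 11499 and 12508 in MCF10A (-0.74, adjusted p = 0.000421). ACACA had 933 and 821 in MDA-MB-231 and 1535 and 1385 in MCF10A (-0.80, adjusted p = 0.000579). ACLY had 2856 and 2439.8 in MDA-MB-231 and 3578 and 4806 in MCF10A (-0.67, adjusted p = 0.00239). The polyunsaturated fatty acid desaturases FADS1 and FADS2 did not pass. FADS1 had 1045 and 797 in MDA-MB-231 and 747 and 778 in MCF10A (0.29, adjusted p = 0.437), and FADS2 had 217 and 225 in MDA-MB-231 and 179 and 198 in MCF10A (0.40, adjusted p = 0.455).

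The 20 genes called had adjusted p-values from 1.84e-94 to 5.89e-07 and differences of 2.19-fold to 23.2-fold. On the FOXF2 siRNA arrays alone 18 of them were at least 2-fold lower in MDA-MB-231, the exceptions being ACAT2 (-0.81) and SCD (-0.99), and on the control siRNA arrays alone all 20 were, after background correction. In deposited intensity MVK and PMVK were also under 2-fold on the FOXF2 siRNA arrays, leaving 16, and all 20 were at least 2-fold lower on the control siRNA arrays. These p-values rest on a spread that limma took wholly from genes of similar brightness, with 1 residual degree of freedom per gene and 1 culture per line and siRNA. With each gene's own spread in its place, 0 of the 31 members passed (lowest adjusted p = 0.436), as did 0 of all genes, and 13 of the 31 had an unadjusted p under 0.05, against 10.5% of all genes. In cultures of 1 line, fewer expressing cells and less RNA per cell cannot be told apart.

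Wider lists showed which neighbours of the pathway shared the difference. Over all genes tested, 5.95% were called lower and 5.75% higher in MDA-MB-231. Of 10 measured genes of other sterol and isoprenoid synthesis, 3 were called lower and 0 higher. Besides LBR, they included GGPS1, which makes geranylgeranyl diphosphate (237 and 202 in MDA-MB-231, 858 and 706 in MCF10A, log2 difference -2.39). Of 17 other fatty acid genes, 3 were called lower and 0 higher. They were the acetyl-CoA synthetase ACSS2 (438 and 462 in MDA-MB-231, 1546 and 1555 in MCF10A, -2.01), the long-chain acyl-CoA synthetase ACSL1 (196 and 206 in MDA-MB-231, 969 and 792 in MCF10A, -2.79) and the fatty acid elongation dehydratase PTPLB, now HACD2 (-1.12). Of 15 measured genes of SREBP processing, which encode the proteases, coat proteins and ubiquitin machinery, 0 were called in either direction, and their median log2 difference was 0.05.

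Of 20 measured genes of sterol efflux, storage, uptake and LXR signalling, 16 were not called, 3 were called higher in MDA-MB-231, against 5.75% of all genes, and 1 was called lower, against 5.95%. Counting smaller differences at an adjusted p under 0.05, 5 were higher and 5 lower, where 9.48% of all genes tested were lower. No such share is given for higher genes, so the 5 higher are not set against all genes. ABCA1, the LXR-induced sterol exporter of the plasma membrane, had 981 and 973 in MDA-MB-231 and 124 and 103 in MCF10A, where it was above background on 1 of the 2 arrays. In deposited intensity ABCA1 was 8.63-fold higher in MDA-MB-231. The fitted log2 difference after background correction was 4.93 (adjusted p = 4.46e-71), which rests on MCF10A values at or near background and is no measure of the fold. MYLIP, an LXR-induced ubiquitin ligase that degrades lipoprotein receptors, had 609.9 and 589 in MDA-MB-231 and 307 and 197 in MCF10A (1.72, adjusted p = 1.98e-11). NR1H3, which encodes an LXR, had 562 and 485 in MDA-MB-231 and 308 and 239.7 in MCF10A (1.24, adjusted p = 3.09e-06). The lipoprotein receptor SCARB1 was the gene called lower, with 960.5 and 759.6 in MDA-MB-231 and 2019 and 1529.8 in MCF10A (-1.12, adjusted p = 2.24e-07). ABCG1, another LXR-induced sterol exporter, had a log2 difference of -0.12 (adjusted p = 0.87).

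**Figure D3:**
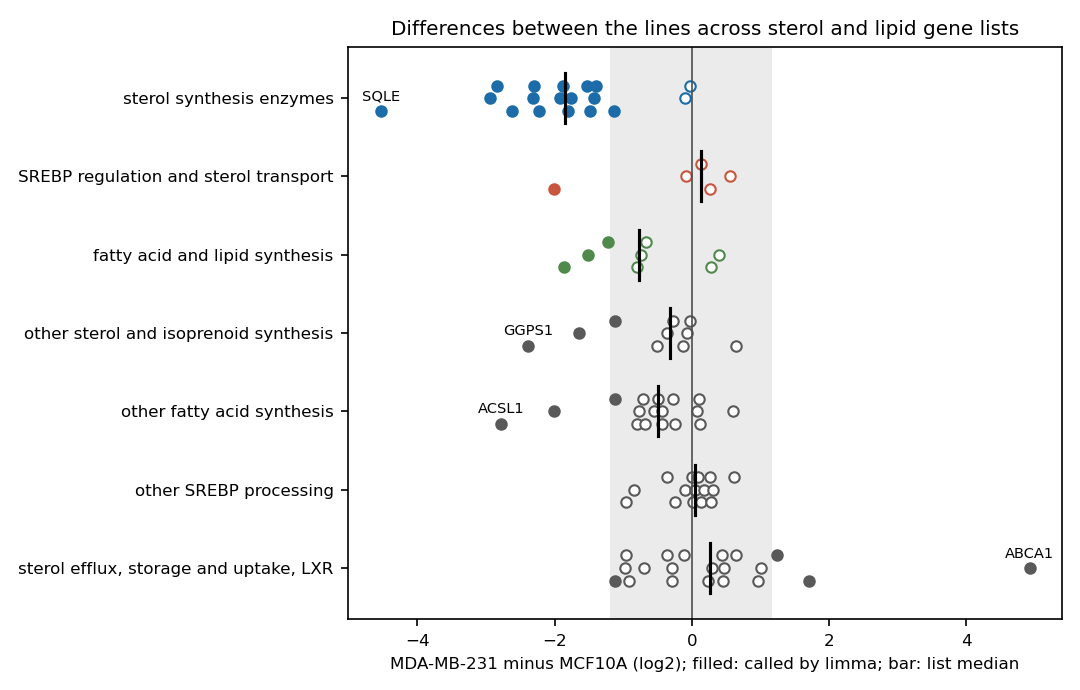
Log2 differences between the lines (MDA-MB-231 minus MCF10A) for genes above background on at least 1 array, by role or list, with filled points for genes called by limma, open points for genes not called and black bars for list medians; the grey band is the 5th to 95th percentile of all genes tested. The sterol synthesis enzymes have a median of -1.84, the genes of SREBP processing a median of 0.05, and ABCA1, above background on 1 of the 2 MCF10A arrays, lies at a fitted 4.93.

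With FOXF2 siRNA, 0 of the 31 measured members passed the limma test of the siRNA effect averaged over the lines. Over all genes tested 0.130% rose and 0.0868% fell in that test. At an unadjusted p under 0.05 there were 5 members (TM7SF2, NSDHL, INSIG1, PMVK and FDPS), against 5.45% of all genes. With limma's spread held equal for bright and dim genes 0 members passed and 1 had an unadjusted p under 0.05. With each gene's own spread 0 passed and 0 had such a p. In either fit 0 of all 20747 genes passed, and 986 and 942 of them, in that order, had such a p. In the fit first described the lowest adjusted p of the members was 0.19. The median log2 difference, FOXF2 siRNA minus control siRNA, was 0.06 in MDA-MB-231 and -0.07 in MCF10A, against 0.00 in either line over all genes. The sign was the same in both lines for 18 of the 31, against 53.0% of all genes above background on all 4 arrays. Within a line each siRNA was read on 1 array, so these differences are described by size, with no test, and 1.5-fold was used as the size.

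In MDA-MB-231, 3 of 31 members were at least 1.5-fold higher with FOXF2 siRNA, against 6.59% of all genes above background on both arrays, and 4 were at least 1.5-fold lower, against 6.29%. In MCF10A, 1 of 31 was at least 1.5-fold higher, against 7.31%, and 0 were lower, against 5.73%. The gene in MCF10A was TM7SF2, with 404 for FOXF2 siRNA and 253 for control siRNA (log2 difference 0.93), and it was higher in MDA-MB-231 too, with 375 and 263 (0.71). On the background-corrected scale TM7SF2 was thus at least 1.5-fold higher in both lines, which held for 0.793% of all genes, while its deposited intensities differed by 1.43-fold in MDA-MB-231 and 1.59-fold in MCF10A. Its averaged difference of 0.82 (SE 0.25) had an adjusted p of 0.19 by limma. LBR, with the same enzyme activity, had differences of -0.26 in MDA-MB-231 and -0.77 in MCF10A.

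The other 2 genes higher in MDA-MB-231 were PMVK and INSIG2. PMVK had 236 with FOXF2 siRNA and 152 with control siRNA (1.19), which made it the member past 2-fold, against 0.912% of all genes, and its difference in MCF10A was 0.25. Without background correction the PMVK difference was 0.64, and PMVK and NSDHL (-0.63) were the 2 of these 7 genes still past 1.5-fold in MDA-MB-231. INSIG2 had 422 and 282 in MDA-MB-231 (0.78) and a difference of -0.15 in MCF10A. The 4 genes lower in MDA-MB-231 were INSIG1, NSDHL, MVD and SREBF2. INSIG1 had 276 with FOXF2 siRNA and 408 with control siRNA (-0.76), and -0.44 in MCF10A. NSDHL had 414 and 639 (-0.76), and -0.42 in MCF10A. Both were lower in either line, with averaged differences of -0.60 and -0.59 and adjusted p-values of 0.44 and 0.383 by limma. MVD had 171 and 221 (-0.67) and SREBF2 126 and 159.8 (-0.90), and in MCF10A their differences were 0.14 and 0.27. FDPS lay just inside 1.5-fold, at -0.57 in MDA-MB-231 and -0.38 in MCF10A.

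In MCF10A the other members with the lowest values were FDFT1 at -0.46, SCD at -0.44 and ACLY at -0.43, and their differences in MDA-MB-231 were 0.06, 0.02 and 0.23. SQLE differed by 0.27 in MDA-MB-231 and -0.37 in MCF10A, EBP by 0.23 and -0.42, and ACAT2 by 0.31 and -0.34. These values were near the spread of all genes, whose log2 differences had a robust SD of 0.37 in MDA-MB-231 and 0.34 in MCF10A. HMGCS1, SC5DL, IDI1 and CYP51A1 had differences between -0.23 and 0.10 in either line. The responses of the lines could not be tested against each other, since the 4 arrays leave no residual degrees of freedom for that term. In the 4 wider lists, 0 genes passed the limma test of the siRNA effect over all genes. An unadjusted p under 0.05 was found for 3 of 20 in the efflux and LXR list and 1 of 17 in the fatty acid list. It was found for 0 of 10 in the sterol list and 0 of 15 in the SREBP processing list, against 5.45% of all genes. The genes were the lysosomal lipase LIPA (0.58 in MDA-MB-231 and 0.56 in MCF10A), SCARB1 (0.38 and 0.42), MYLIP (0.06 in MDA-MB-231, with 307 and 197 in MCF10A) and the mitochondrial citrate carrier SLC25A1 (0.31 and 0.72).

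**Figure D4:**
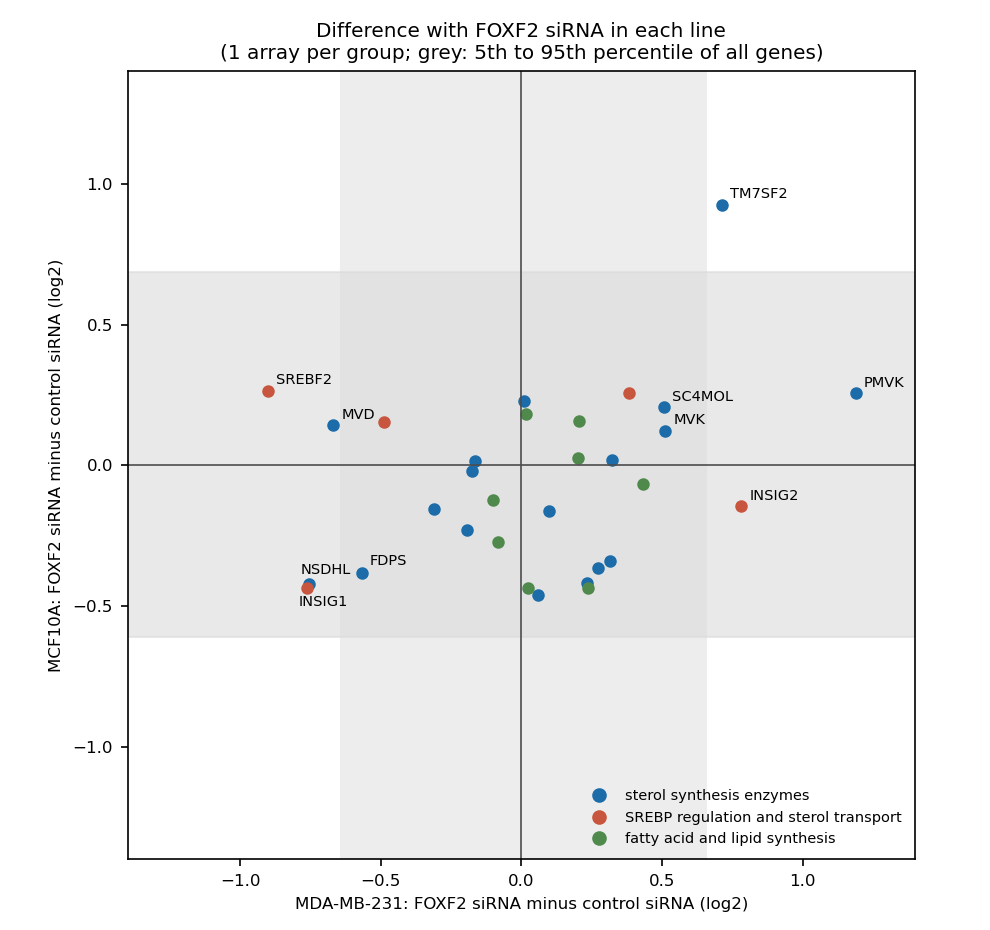
Log2 difference with FOXF2 siRNA (FOXF2 siRNA minus control siRNA) in MDA-MB-231 (horizontal) and in MCF10A (vertical) for the 31 genes above background, 1 array per group, with grey bands for the 5th to 95th percentile of all genes in each line. TM7SF2 lies outside both bands, at 0.71 and 0.93, and most other genes lie inside both.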

How the data were processed

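Total RNA from 4 cultures was labelled as biotinylated cRNA with a MessageAmp kit and read on Illumina arrays, per the labels. The table the authors deposited holds linear intensity values, 1 for each gene name on each array. How they were normalized and how probes were summarized is not stated in the labels; array medians nearly coincided and the lowest intensities were 72.4 to 74.0, so no background appeared subtracted. The deposited probe table lists 1 probe for 21 members, 2 for 7 and 3 for 4; its 8 columns of per-sample values match no sample label and were not used.

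The background of each array was the mode of its low values (kernel density; SD 8.13 to 8.27 from values below the mode). Signals came from limma's normexp with those parameters, and log2 was taken after an offset of 16. The limit above background was its upper 1%. The fit used limma 3.58.1 in R 4.3.3 (lmFit with line and siRNA, eBayes with a trend, 1 residual degree of freedom, infinite prior degrees of freedom). It was run on simulated data in which every gene had the spread that the fit assumes. That run cannot show how the p-values hold where genes or cultures differ from this spread. As 1 array stood for each group, the lines served as replicates for the siRNA effect and the siRNAs for the line difference. With infinite prior degrees of freedom, the p-values rest on the spread of genes of similar brightness over these arrays. They measure no spread between replicate cultures, and the number of arrays limits precision. Background, offset, scaling, quantile, detection-limit, variance and filter alternatives were tried. Values on every array were printed for genes called, genes past 1.5-fold, the extremes of each comparison and the regulators; genes of wider lists were named when called, except for a result that is not reported here. LBR and ABCG1 in their other uses, and genes at an unadjusted p, were picked with their values in view. The members and lists were chosen with earlier results of these data known. Protein sequences were not used here.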

Additional observations from a re-analysis of the deposited data

Results flagged for a closer look

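With FOXF2 siRNA, 3 members differed by at least 1.5-fold in MDA-MB-231 after background correction and had the opposite sign in MCF10A. Of all genes above background on both MDA-MB-231 arrays, 6.59% were at least 1.5-fold higher and 6.29% lower. Of all genes above background on all 4 arrays, 53.0% had the same sign in both lines. The share of all genes with both traits was not counted. The difference between the lines was not tested, since each group had 1 array. The log2 difference in MDA-MB-231 minus that in MCF10A was 0.93 for INSIG2 (0.78 and -0.15), -0.81 for MVD (-0.67 and 0.14) and -1.17 for SREBF2 (-0.90 and 0.27). Without background correction none of the 3 reached 1.5-fold in MDA-MB-231, where the log2 differences were 0.58 for INSIG2, -0.37 for MVD and -0.35 for SREBF2. SREBF2 was near background on all 4 arrays, with intensities of 126 and 159.8 in MDA-MB-231 and 140.2 and 131 in MCF10A.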

How the results depend on the processing

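The 20 members called lower in MDA-MB-231 were the same 20 genes under 7 of the 10 other fits of line and siRNA. Without background correction 19 of the 20 remained, with PMVK at -0.94, short of the size of 1; with eBayes without a trend 19 remained, with ACAT2 at an adjusted p of 0.0724; and with each gene's own spread 0 remained. As values with no test, 21 members differed by at least 2-fold in either direction between the lines on the control siRNA arrays alone. They were the 20 called and ACLY, which was lower in MDA-MB-231 but not called. On the FOXF2 siRNA arrays alone there were 19 such members. They were 18 of the 20 called and INSIG2, which was higher in MDA-MB-231 and not called. No share of all genes is given for these counts. The median difference between lines was -1.48, and -1.26 without background correction, -1.36 with normexp fitted to all values and -1.34 with an offset of 50, since each of these compresses the differences of dim genes. All genes called numbered 1235 lower and 1193 higher; they were 658 and 568 without background correction, 878 and 798 with an offset of 50, and 0 and 0 with each gene's own spread. For FOXF2 siRNA 0 members passed under any of the 10 fits, with lowest adjusted p-values of 0.101 to 0.938. The 7 members past 1.5-fold in MDA-MB-231 became 2 without background correction and 1 at 2-fold, and the 1 in MCF10A became 0 at 2-fold. No called difference reversed its sign under these alternatives. No paired analysis was possible because the labels give no replicate numbers that could serve as a block beyond the line, which the fit already held as a term. Signal over background limits the dim genes: without background correction the differences in MDA-MB-231 with FOXF2 siRNA were 0.64 in place of 1.19 for PMVK and -0.35 in place of -0.90 for SREBF2.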
